A study of Mus musculus with 8 samples.

Results

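The sebaceous gland lipid genes are 10 genes, Scd1, Scd3, Elovl3, Elovl5, Soat1, Awat2, Far2, Cidea, Pparg and Mc5r, taken as the rows with these symbols, and all 10 were found among the 16902 genes of both tables. They were measured by polyadenylated RNA sequencing of the epidermis of CD1 mouse back skin, parted from the dermis with dispase. The 8 libraries formed 4 groups of 2, each with 1 female and 1 male: untreated Ovol1 +/- controls, untreated Ovol1 -/- mice, imiquimod (IMQ) treated Ovol1 +/+ controls and IMQ treated Ovol1 -/- mice. IMQ, an agonist of Toll-like receptors, causes psoriasis-like skin inflammation in mice, and Ovol1 encodes a zinc-finger transcription factor of epithelia. The controls were thus heterozygous in one comparison and wild type in the other. The labels give no age, dose, duration or number of animals per library. The main p-values rest on the spread between the 1 female and 1 male library of a group. This spread is pooled over the 4 groups and shrunk toward that of other genes. With sex as a block, p-values rest on the spread left after a shared sex difference.

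The libraries held 28600596 to 43080052 reads. Ovol1 itself stood higher in the libraries labelled -/-, at 27433 and 26601 normalised counts against 16629 and 14582 in the untreated controls, and at 13457 and 13076 against 7635 and 9556 under IMQ. No exon-level values were used here, so a transcript without the deleted part cannot be told from an intact one, and these libraries are named labelled knockouts below. A normalised count is a read count divided by 1 size factor per library. The untreated and the IMQ tables were scaled separately, so tests were made within a table.

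The sebaceous gland empties whole, lipid-filled cells (sebocytes) into the hair canal, and its secretion, sebum, is rich in wax esters, sterol esters and triglycerides. Fatty acids are lengthened by elongases and desaturated by stearoyl-CoA desaturases, some are reduced to fatty alcohols, and acyltransferases join these to esters that are stored in droplets. The nuclear receptor PPAR gamma drives sebocyte differentiation, and melanocortin 5 receptor signalling supports sebum output. Mice that lack Scd1 are known for shrunken sebaceous glands.

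In mm10 (GRCm38, GENCODE vM21) all 10 are protein-coding genes. Scd1 (19:44394455-44407879, minus strand), Scd3 (19:44203269-44244016, plus strand) and Elovl3 (19:46131897-46135694, plus strand) share chromosome 19 with Ovol1 (19:5549136-5560646, minus strand) and lie 38.8, 38.6 and 40.6 Mb from it. Elovl5 lies at 9:77917364-77984519, Soat1 at 1:156424525-156474331, Awat2 at X:100402221-100442717, Pparg at 6:115360951-115490399 and Far2 at 6:148047259-148182758. Because Scd1 and Scd3 are close paralogs, reads could be divided between them. Of all 100-base windows of the annotated Scd1 transcripts, 2.58% also occur in a transcript of another gene, and for Scd3 the share is 2.49%. The other 8 genes share no such window with an annotated transcript of another gene. Copies elsewhere in the genome and inexact matches were not checked.

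Upstream sequence was found in RefSeq (GRCm38.p6) for 6 of the 10 genes (Soat1, Pparg, Far2, Elovl5, Scd3 and Awat2), with 9 start sites in all. Within 250 bases before a start, both strands were searched for AGGTCA (the core of nuclear receptor elements), CCGTTA (the core letters bound by the Ovo family), CCAAT, TCACNCCAC (a sterol regulatory element) and TATAAA, and no matches overlapped. AGGTCA was found in 2 of the 9 windows, both of Pparg, against 14.0% of 32851 windows genome-wide. CCGTTA was found in 1, that of Soat1, against 2.18%. CCAAT was found in 6 against 33.8%, TATAAA in 1 against 12.4% and TCACNCCAC in 0 against 1.05%. Elovl5 and Soat1 are shown since they had the smallest p-values of the members in untreated epidermis, and the second Pparg start since it holds 3 of the motifs. Capitals mark the matches, on either strand. The windows are chr9:77917115-77917364 (plus strand) for Elovl5, chr1:156474329-156474578 (minus strand) for Soat1 and chr6:115362099-115362348 (plus strand) for Pparg.
Elovl5: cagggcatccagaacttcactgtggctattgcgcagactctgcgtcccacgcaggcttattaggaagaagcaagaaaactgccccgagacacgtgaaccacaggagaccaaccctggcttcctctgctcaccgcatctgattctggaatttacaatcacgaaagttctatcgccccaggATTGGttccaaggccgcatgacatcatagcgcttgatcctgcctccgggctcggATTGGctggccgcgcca
Soat1: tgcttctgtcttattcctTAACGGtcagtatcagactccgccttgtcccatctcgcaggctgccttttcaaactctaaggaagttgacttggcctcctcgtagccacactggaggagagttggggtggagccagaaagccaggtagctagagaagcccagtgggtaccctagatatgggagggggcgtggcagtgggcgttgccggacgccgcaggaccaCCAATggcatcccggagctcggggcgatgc
Pparg: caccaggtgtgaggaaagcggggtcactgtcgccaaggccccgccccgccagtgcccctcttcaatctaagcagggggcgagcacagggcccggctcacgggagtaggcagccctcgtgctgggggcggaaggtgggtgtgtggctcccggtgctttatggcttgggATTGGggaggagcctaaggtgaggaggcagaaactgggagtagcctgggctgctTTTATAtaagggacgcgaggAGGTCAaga
In Elovl5 the CCAAT matches begin 71 and 17 bases before the start. In Soat1 the match to the Ovo core begins 232 bases before it and the CCAAT match 30. In Pparg the CCAAT match begins 83 bases before the start, the TATA box letters 29 and the nuclear receptor core 9. These are matches of letters, not measured binding.

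Levels can be compared between the genes only per length, here as CPM (reads relative to library size, with TMM factors over the 8 libraries) per kilobase of exon. Scd1 was the most abundant member, at 77.8 to 378 with a median of 163. Cidea (median 33.6), Scd3 (33.3), Elovl5 (25.5), Elovl3 (20.1) and Far2 (19.7) followed, with ranges over libraries that overlapped each other. Soat1 was at 3.92 to 13.4, Awat2 at 1.41 to 14.0, Pparg at 0.678 to 3.50 and Mc5r at 0.124 to 0.858. The ranges of Pparg and Mc5r, the transcription factor and the receptor, lay below those of all other members except Awat2, which Pparg overlapped. Scd1 alone took 56.5% to 65.5% of the reads of the 10 genes in each library. The 10 together made up 0.121% and 0.218% of reads in the untreated controls, 0.295% and 0.308% in the untreated labelled knockouts, 0.109% and 0.0582% in the IMQ controls and 0.0669% and 0.134% in the IMQ labelled knockouts (female and male in turn).

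**Figure D1:**
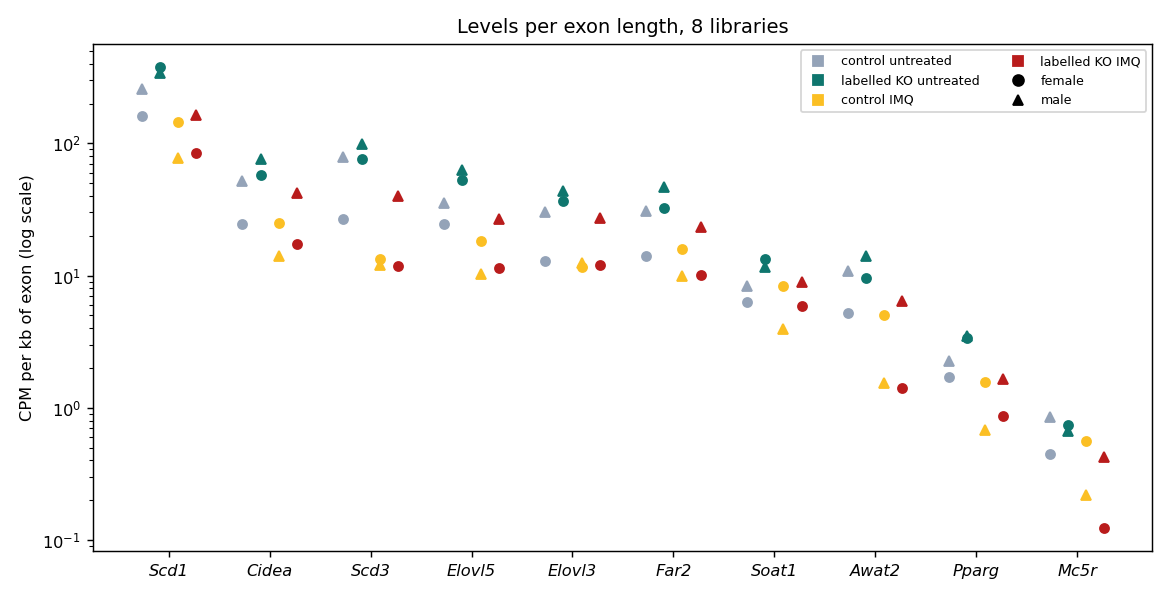
Level of each gene in CPM per kilobase of exon (log axis), 1 point per library, coloured by group, with circles for females and triangles for males. Scd1 has the highest median (163) and Mc5r the lowest (0.503).

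The untreated comparison asks whether the genes differ in resting epidermis between labelled knockouts and Ovol1 +/- controls. All 10 had a positive log2 fold change, with a median of 0.89 (range 0.21 to 1.04) where the median of all 14614 genes tested was 0.00, and 49.5% of all genes were positive. None passed the test over all genes (limma, adjusted p = 1.00 for each). At an unadjusted p under 0.05 there were 2 of 10, where 4.46% of all genes were. Over all genes limma called 0.0%, edgeR 0.0% and limma with sex as a block 0.0547%. DESeq2 called 0.619% of the 14047 genes to which it gave an adjusted p. None of these fits called a member. In bulk tissue fewer cells of a type and less RNA per cell cannot be told apart.

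Both desaturases, which put a double bond into saturated fatty acids, were lowest in the female control. Scd1 had 29450 (female) and 46820 (male) normalised counts in controls against 69903 and 63538 in labelled knockouts, so both knockout libraries lay above both controls. Its log2 fold change was 0.84 (SE 0.39, limma adjusted p = 1.00). Scd3, whose expression is known to centre on the sebaceous gland, was at 3533 and 10369 against 10304 and 13293. Here the male control lay just above the female labelled knockout, so the groups overlapped, and the log2 fold change of 0.95 (SE 0.61) had the widest error of the fatty acid enzymes.

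The elongases had the largest log2 fold changes of the members. Elovl3, which makes very long saturated and monounsaturated chains, was at 951 and 2223 normalised counts in controls against 2738 and 3281 in labelled knockouts. Elovl5, which elongates polyunsaturated chains, was at 3201 and 4634 against 7080 and 8415. Neither gene's groups overlapped. Their log2 fold changes were 1.04 (SE 0.45) and 1.00 (SE 0.41), with a limma adjusted p of 1.00 for both. Elovl5 was 1 of the 2 members with an unadjusted p under 0.05.

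Among the ester-forming enzymes, Far2 reduces fatty acids to the alcohols of wax esters. Its normalised counts were 3849 and 8335 in controls against 9046 and 13048 in labelled knockouts, without overlap (log2 fold change 0.94, SE 0.48). Soat1, which esterifies cholesterol, was at 2312 and 3018 against 4980 and 4315, also without overlap (0.81, SE 0.35), and was the other member with an unadjusted p under 0.05. Awat2, a wax synthase that joins the alcohols to acyl chains, was at 411 and 855 against 772 and 1135, so the male control lay above the female labelled knockout (0.66, SE 0.78). The spread of Awat2 was thus wider than its difference.

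Cidea (18:67343604-67367785), a lipid droplet protein that promotes droplet growth, was at 1024 and 2134 normalised counts in controls against 2450 and 3242 in labelled knockouts (log2 fold change 0.93, SE 0.50). Pparg was at 187 and 250 against 375 and 393 (0.82, SE 0.43). Neither overlapped, and the labelled knockouts differed less from each other in Pparg than the controls did. Mc5r (18:68337596-68342446), the receptor, rested on 75 to 116 reads per library and was at 64.8 and 125 against 109 and 99.9 (0.21, SE 0.65). Mc5r was the member whose male pair went the other way.

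In all, both labelled knockout libraries lay above both controls in 7 of the 10 genes, against 17.4% of all genes tested. The female control was the lowest untreated library in 10 of 10 genes, and the male labelled knockout the highest in 7. The shares of all genes with these orders are not given here. The untreated median difference was 1.19 in the female pair (10 of 10 positive) and 0.54 in the male pair (9 of 10). Without the female control it was 0.42, and without the male control 1.23.

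**Figure D2:**
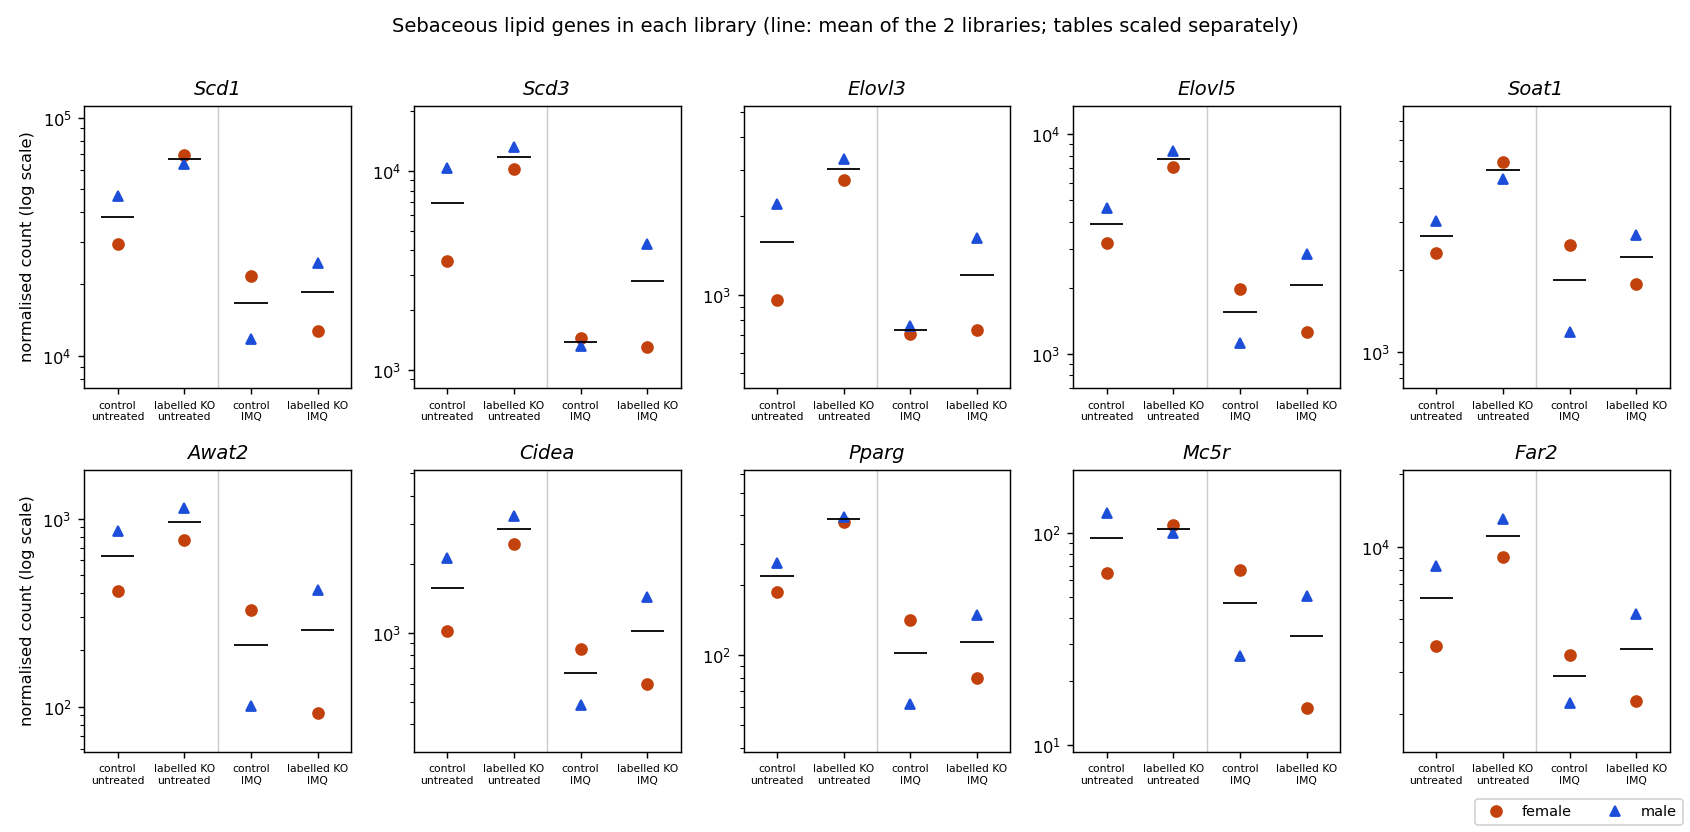
Normalised count of each gene in each of the 8 libraries (log axis; circles are females, triangles males, the line is the mean of the 2 libraries). The female control is the lowest untreated library in 10 of 10 genes. The male labelled knockout is the highest IMQ library in 9 of 10. Shares of all genes with these orders are not given. Values left and right of the grey line were scaled separately.

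Under IMQ the comparison asks whether the genes differ in inflamed epidermis between labelled knockouts and Ovol1 +/+ controls. The pairs of the sexes lay on opposite sides of zero in 9 of 10 genes. In the female pair 9 of 10 genes were lower in the labelled knockout (median log2 difference -0.64, range -2.10 to 0.06), and in the male pair 10 of 10 were higher (median 1.24, range 0.91 to 2.04). The medians of all genes were -0.02 and 0.00 in these pairs, and 48.7% and 49.5% of all genes were higher in the labelled knockout. The share of all genes with the pairs on opposite sides of zero is not given here. Both labelled knockout libraries lay above both controls in 0 of 10 genes (26.6% of all genes) and below them in 0 of 10 (26.4%), so the groups overlapped for every member.

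Scd1 was at 21538 (female) and 11727 (male) normalised counts in IMQ controls against 12729 and 24434 in labelled knockouts. Scd3 was at 1453 and 1320 against 1304 and 4316, so the male labelled knockout stood alone above the other libraries. Elovl3 had the same shape, at 705 and 758 against 733 and 1638. Elovl5 was at 1975 and 1117 against 1250 and 2859, with the sexes crossed as in Scd1.

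The ester-forming enzymes were crossed too. Soat1 was at 2474 and 1182 normalised counts in controls against 1773 and 2682 in labelled knockouts, and Far2 at 3530 and 2240 against 2285 and 5234. Awat2 had the widest crossing, at 325 and 100 against 92.4 and 417. Its pair differences were -1.80 in the females and 2.04 in the males on the log2 scale.

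Cidea was at 848 and 484 normalised counts in IMQ controls against 598 and 1437 in labelled knockouts, and Pparg at 142 and 61.7 against 79.5 and 148. Mc5r was at 67.0 and 26.3 against 14.9 and 50.4, from 15 to 73 reads per library. Its highest IMQ library was the female control, where the male labelled knockout was the highest for the other 9 genes.

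With the sexes combined, 9 of 10 genes had a positive log2 fold change under IMQ, with a median of 0.32 against -0.01 for all genes. These ran from -0.59 (SE 0.65) for Mc5r to 0.78 (SE 0.61) for Scd3. Of the members 0 passed limma (adjusted p = 0.477 to 0.947) or edgeR (0.294% of all genes). In DESeq2 0 passed, against 9.66% of the 12914 genes to which it gave an adjusted p. Of the members 0 had an unadjusted limma p under 0.05, where 22.0% of all genes had one. The limma fit called 64 genes (0.438%). With sex as a block it called 2.45% of genes, and the members' adjusted p was 0.262 or higher. The combined values rest on single libraries: the median was -0.24 without the male labelled knockout, 0.92 without the female labelled knockout, -0.12 without the male control and 0.78 without the female control.

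**Figure D3:**
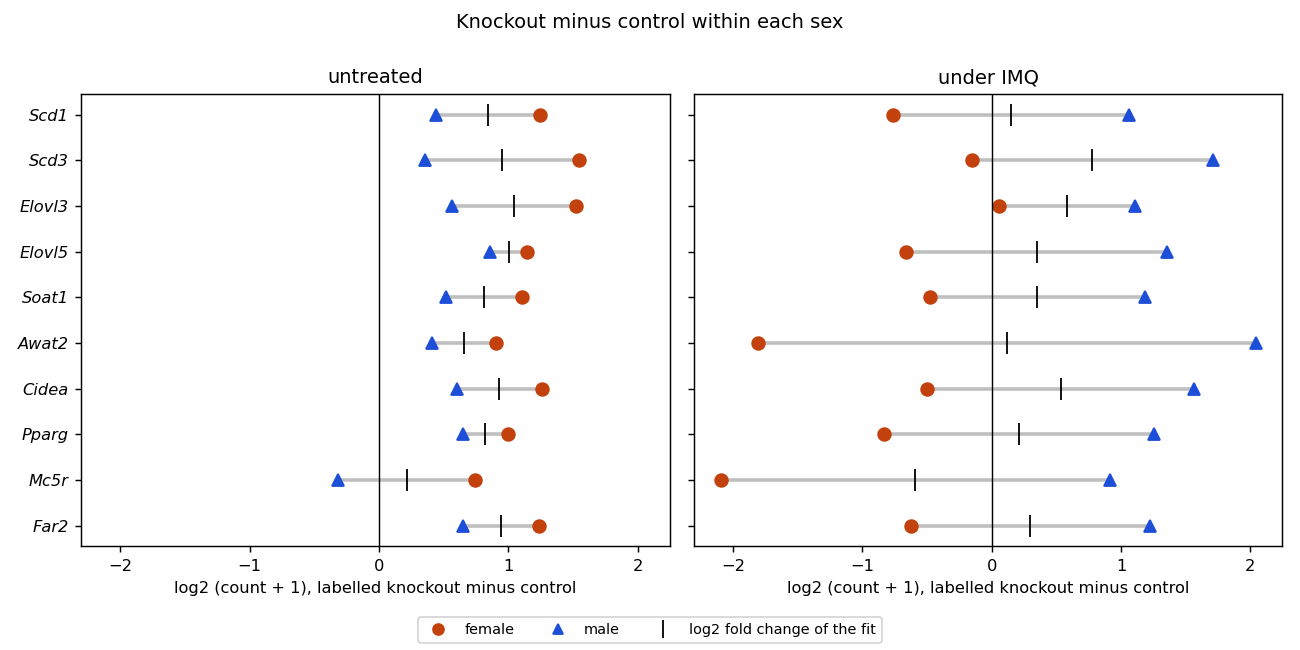
Labelled knockout minus control on the log2 (count + 1) scale for each gene, in the female pair (circles) and the male pair (triangles), with the log2 fold change of the fit as a black tick. Untreated, 9 of 10 genes have both pairs above zero; under IMQ, 9 of 10 have the female pair below and the male pair above zero.

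The difference between the genotype effects, IMQ minus untreated, was negative in 10 of 10 genes, with a median of -0.57 on the log2 scale against -0.03 for all genes. The values ran from -0.80 (SE 0.92) for Mc5r to -0.17 (SE 0.87) for Scd3, and the SE ran from 0.49 for Soat1 to 1.10 for Awat2. Of the members 0 passed limma (adjusted p = 0.665 to 0.958) and 0 had an unadjusted p under 0.05, against 10.1% of all genes. No gene of any kind was called by limma (0.0%) or edgeR, and DESeq2 called 98 (0.671%), of which 0 were members. The median was about zero (7.45e-05) without the female labelled knockout under IMQ.

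Between the treatments only levels can be given, as CPM with 0.5 added, since the tables were scaled apart and the control genotypes differ. In the labelled knockouts both IMQ libraries lay below both untreated libraries in 10 of 10 genes (40.1% of all genes), with a median difference of -1.36 on the log2 CPM scale, where all genes had -0.01. Scd3 had the largest drop, from 272 and 350 CPM to 42.2 and 142. Scd1 went from 1848 and 1671 CPM to 412 and 802. Soat1 had the smallest, from 132 and 114 to 57.4 and 88.0 CPM. In the controls the groups were apart in 6 of 10 genes (32.3% of all genes), and the median was -0.86 where all genes had 0.02. That median was -1.67 between the males, with 10 of 10 genes lower under IMQ, and -0.07 between the females, with 6 of 10 lower. The shares of all genes lower within a sex are not given here. In the control females Far2 was at 103 CPM untreated and 116 under IMQ, and Soat1 at 61.9 and 81.1, whereas in the control males Far2 was at 224 and 72.7 and Soat1 at 81.2 and 38.4.

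The sexes also differed within a group. In the untreated controls all 10 genes were higher in the male library (median male minus female 0.99 on the log2 scale), and in the untreated labelled knockouts 7 of 10 were (0.25). Under IMQ 9 of 10 were higher in the female control (-0.85) and 10 of 10 in the male labelled knockout (1.19). Over all genes these medians were 0.03 or closer to zero. With 1 library per sex in a group, sex and library cannot be told apart.

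The members were summarised by their median profile over the libraries, which was computed from them, so their nearness to it is only a description. Taken as log2 (count + 1) minus the mean of its table, the median of the 10 genes was -0.81 and 0.08 for the female and male control of the untreated table, and 0.33 and 0.62 for its labelled knockouts. Under IMQ the control values were 0.30 and -0.55, and those of the labelled knockouts -0.41 and 0.76. Genes were ranked by the root mean square difference of their own values from this profile over the 8 libraries, and the median of the other 14604 tested genes was 0.59. Far2 (0.11), Cidea (0.11) and Elovl5 (0.11) lay closest of the members, and Scd3 (0.33), Awat2 (0.35) and Mc5r (0.44) farthest.

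The 8 named genes outside the members that lay nearest were Tmem164 (root mean square difference 0.08), Pnpla5 (0.08), Snap91 (0.09), Crat (0.10), Adig (0.11), Clstn3 (0.13), Reep6 (0.13) and Fa2h (0.14). Fa2h encodes fatty acid 2-hydroxylase, Crat carnitine acetyltransferase, Adig a small protein of fat cells and Pnpla5 a patatin-like lipase. Pnpla5 was at 1294 and 2437 normalised counts in the untreated controls, 3082 and 3668 in the untreated labelled knockouts, 843 and 484 in the IMQ controls and 499 and 1007 in the IMQ labelled knockouts. Tmem164 was at 3166 and 5765, 6291 and 7929, 1820 and 1089, and 1060 and 2380 in the same order. Both had the low untreated female control and the high IMQ male labelled knockout, which follows from their selection by nearness to the profile. Of the 100 nearest genes, 16 were in the pathway lists, which make up 0.794% of the genes ranked. The members and lists were chosen with earlier results of these data known, so this share is not a chance rate. Among these 16 were Mgst1 (0.17), a glutathione transferase gene known from sebocytes, Awat1 (0.26), the other wax synthase, and Krt79 (0.29), a keratin of the sebaceous duct. These 3 were chosen after their values were seen. Of the 32 tested sebocyte and duct markers, only Mgst1, Slc27a4, Ldhb and Krt79 were among the 16. The 32 markers had median log2 fold changes of 0.12 untreated and -0.14 under IMQ, where 12 were positive and 20 negative.

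**Figure D4:**
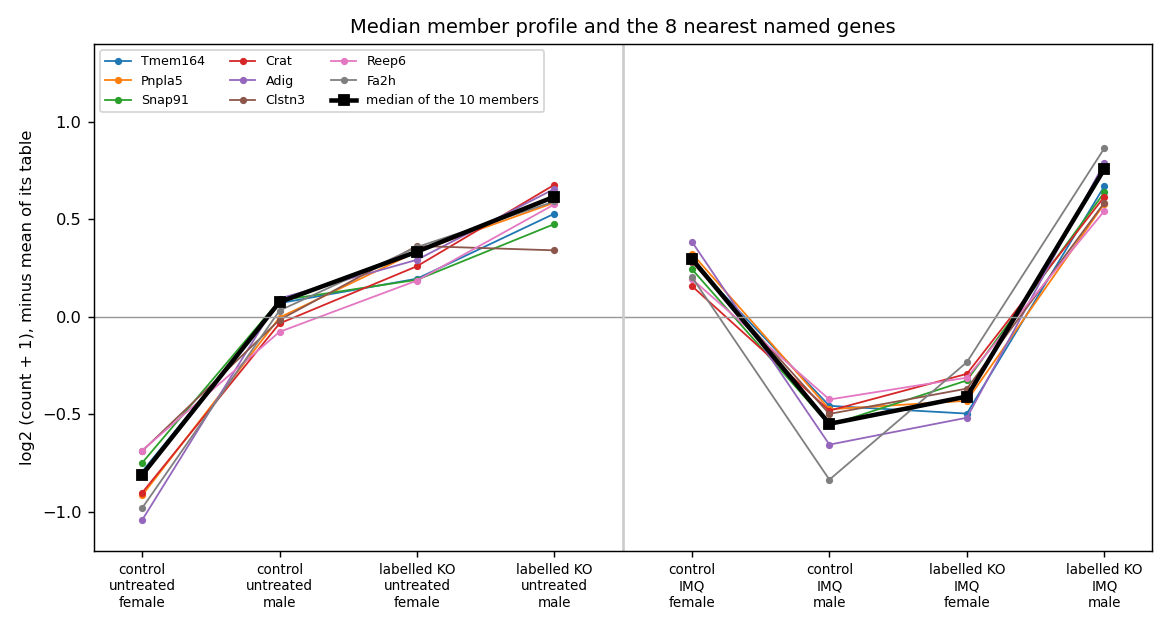
Log2 (count + 1) minus the mean of its table in each library, for the median of the 10 members (black) and the 8 nearest named genes; the lines only join the values of a gene. The black line runs from -0.81 in the untreated female control to 0.62 in the untreated male labelled knockout, and from -0.55 in the male control to 0.76 in the male labelled knockout under IMQ.

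Of the 116 other tested pathway genes, 0 passed limma in any of the 3 contrasts. Untreated, 13 were higher and 1 lower at an unadjusted p under 0.05 (2.79% and 1.67% of all genes), and 92 had a positive log2 fold change (median 0.15). Under IMQ 16 were higher and 20 lower (22.0% of all genes in either direction; 51 positive, median -0.12). For the difference 4 were higher and 13 lower (4.05% and 6.02% of all genes), with a median of -0.32. Counts of higher and lower genes in the lists below use the same unadjusted limma p under 0.05. The largest untreated median of the other lists was 0.31, in the 16 other genes of wax, sterol and triglyceride ester synthesis (2 higher and 0 lower at an unadjusted p under 0.05).

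Of the 7 other desaturase genes, 1 was higher untreated and 1 higher and 3 lower under IMQ at an unadjusted p under 0.05. Scd2, a desaturase of the same gene cluster, was at 1596 and 1619 normalised counts in untreated controls against 3501 and 3777 in labelled knockouts. Under IMQ it was at 1055 and 1242 against 400 and 831, so here the labelled knockouts lay below. Its log2 fold changes were 1.18 (SE 0.30) untreated and -0.99 (SE 0.30) under IMQ, and the difference of -2.17 (SE 0.42) had a limma adjusted p of 0.476. Scd2 thus did not repeat the crossing of the sexes that Scd1 and Scd3 had under IMQ. Fads1 and Fads2, desaturases of polyunsaturated fatty acids, had log2 fold changes of -1.46 (SE 0.42) and -1.71 (SE 0.70) under IMQ. Their limma adjusted p was 0.124 and 0.212. Fads1 was at 684 and 283 normalised counts in the IMQ controls against 122 and 208, and Fads2 at 106 and 26.3 against 14.9 and 16.2. The female control was thus the highest IMQ library in both.

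The 17 tested genes of elongation and acyl-CoA synthesis had medians of 0.16 untreated (2 higher, 0 lower at an unadjusted p under 0.05) and 0.20 under IMQ (2 higher, 2 lower). Hsd17b12, a reductase of the elongation cycle, was at 0.55 (SE 0.16) untreated. Hacd1, a dehydratase of that cycle, and Acsl1, an acyl-CoA synthetase, were at 1.06 (SE 0.32) and -0.92 (SE 0.26) under IMQ. In the ester list, 5 were higher and 2 lower under IMQ (median 0.14). Lpin1, which makes diacylglycerol, was at 0.72 (SE 0.26) untreated and -1.03 (SE 0.26) under IMQ, while its relative Lpin2 was at 0.89 (SE 0.25) and the acyltransferase gene Gpat3 at -0.77 (SE 0.30) under IMQ.

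The 11 other lipid droplet genes had medians of 0.23 untreated and -0.09 under IMQ. At an unadjusted limma p under 0.05, 2 were higher and 0 lower untreated, and 1 higher and 3 lower under IMQ. Hilpda, a droplet protein induced by low oxygen, was at 575 and 434 normalised counts in untreated controls against 1129 and 788 in labelled knockouts, and at 794 and 695 against 1757 and 1360 under IMQ. Its groups were apart in both, with log2 fold changes of 0.92 (SE 0.23) and 1.06 (SE 0.23, limma adjusted p = 0.0818, 0.0187 with sex as a block). Cidec, a relative of Cidea, was at -1.91 (SE 0.71) under IMQ, from 205 and 51.4 against 16.9 and 41.8, and the lipase gene Pnpla2 at -0.53 (SE 0.18).

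The 18 tested partners and targets of PPAR gamma had medians of 0.13 untreated and 0.07 under IMQ. At an unadjusted limma p under 0.05, 3 were higher and 0 lower untreated, and 4 higher and 2 lower under IMQ. Lpl, lipoprotein lipase, was at 773 and 938 normalised counts in untreated controls against 2758 and 1718 in labelled knockouts (1.35, SE 0.25, limma adjusted p = 0.346). The other PPAR genes did not pass limma under IMQ. Ppard was at 1676 and 1692 against 4104 and 2964 (1.05, SE 0.16, adjusted p = 0.0517, 0.0336 with sex as a block), and Ppara at 87.2 and 53.7 against 24.9 and 29.5 (-1.31, SE 0.29, adjusted p = 0.0818, 0.0558 with sex as a block). Pparg itself had 0.21 (SE 0.43) there, with its groups overlapping.

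Of the 12 genes of the melanocortin system 8 were in the tables and 4 could be tested. Their medians were -0.06 untreated and -0.42 under IMQ. At an unadjusted limma p under 0.05, 1 was higher and 0 lower untreated, and 0 higher and 1 lower under IMQ. Agrp, an antagonist of melanocortin receptors, was at 1.13 (SE 0.47) untreated, and Pcsk2, a hormone-processing protease, at -1.17 (SE 0.34) under IMQ. The 32 tested sebocyte and duct markers had medians of 0.12 untreated (1 higher, 1 lower) and -0.14 under IMQ (3 higher, 6 lower). Insig1, which holds back sterol synthesis, was at -1.82 (SE 0.59) under IMQ. Its normalised counts were 1758 and 6264 in the IMQ controls against 616 and 1434, so the male control stood far above the other libraries. Ptger3, a prostaglandin receptor gene, was at -1.39 (SE 0.35) under IMQ. Muc1, a mucin gene, was at -0.70 (SE 0.29) untreated and 0.72 (SE 0.29) under IMQ. The 13 tested genes of de novo lipogenesis had medians of 0.25 untreated and -0.21 under IMQ. At an unadjusted limma p under 0.05, 1 was higher and 0 lower untreated, and 0 higher and 3 lower under IMQ. Fasn, fatty acid synthase, was at 8924 and 12200 normalised counts in the IMQ controls against 6294 and 7798 (-0.57, SE 0.22, limma adjusted p = 0.193, 0.0462 with sex as a block). Fasn and Acaca are also in the list of sebocyte and duct markers, so Fasn is counted as lower under IMQ in both lists. Acly, which supplies acetyl-CoA, was at -0.54 (SE 0.17) under IMQ, and Acss2, an acetyl-CoA synthetase, at 0.81 (SE 0.28) untreated.

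Markers of other cell types moved with some of these libraries. The summed CPM of 10 white adipocyte markers was 15.0 to 19.4 in the untreated libraries, 38.8 and 29.4 in the IMQ controls and 11.3 and 30.9 in the IMQ labelled knockouts, and Lep was at 0 in the untreated female labelled knockout. Untreated, 2 of the 7 tested adipocyte markers had a positive log2 fold change (median -0.33), opposite to the members. Under IMQ 0 of 7 had one (median -0.91). Split by sex, this IMQ median was -2.47 for females (0 of 7 positive) and 0.22 for males (5 of 7). Muscle (-4.35, 1.30), melanocyte (-1.63, 0.28), leukocyte (-0.29, 0.30), hair matrix (-0.58, 0.70) and sebocyte and duct medians (-0.52, 0.13) crossed likewise. Fibroblast, endothelial, outer root sheath and suprabasal medians were negative for either sex, and the basal medians were 0.04 and -0.13. The crossing was thus not confined to the members. In the untreated libraries Adipoq, the defining adipocyte hormone, was at 20.4 to 41.2 normalised counts. The 12 dermal fibroblast markers summed to 158 and 487 CPM in untreated controls against 79.0 and 521 in labelled knockouts, and to 272 and 2627 against 80.4 and 1677 under IMQ, so the male library was the higher in every group. The female IMQ control stood apart by other tissue markers, with 113 CPM of muscle (5.83 to 20.8 in the other 7 libraries), 17.7 of endothelium (0.520 to 2.90) and 81.9 of melanocytes (14.4 to 26.3). It was also the IMQ control with more of the sebaceous lipid genes in 9 of 10 cases. Hair matrix and shaft markers summed to 33.7 and 34.5 CPM in untreated controls against 38.9 and 38.8 in labelled knockouts, with a median log2 fold change of 0.45, and to 16.8 and 21.9 against 22.3 and 31.6 under IMQ (median -0.22). Hair follicle stem and outer root sheath markers summed to 5757 and 5923 against 4683 and 4797 CPM untreated (median -0.29, 0 of 11 positive), and to 2334 and 2041 against 1776 and 1812 under IMQ. Leukocyte markers, a list that includes S100a8, S100a9 and Cd74, summed to 904 to 1386 CPM untreated and 1327 to 2329 under IMQ. The share of single genes in these sums is not given here. Basal and suprabasal keratinocyte markers, which define the epidermis, summed to 13120 to 19267 and 9606 to 18060 CPM over the 8 libraries. The part of these cell types in the members' values was not tested.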

How the data were processed

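Epidermal RNA of 8 libraries was sequenced as 100-base paired reads. Per the submitters' processing notes, the tools were STAR 2.5.2a, Trimmomatic 0.35, R 3.6.1 and DESeq2 1.24.0, with the genome mm10; the read counter, annotation and gene filter were not given in the sources used here. Each deposited value is a signal: the gene's reads over a library-wide size factor, with the 2 tables scaled apart. The untreated controls are headed as wild type in the deposited table but labelled +/-, and the labels were followed. All values were whole multiples of 1 step within 0.001 and were divided by it to recover reads.

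Genotype effects were fitted with limma 3.58.1 in R 4.3.3 (trend, robust) on log2 of the deposited signal plus 1, with 4 group means over 8 libraries, for 14614 genes with a mean of at least 10 in either table, all 10 members among them. Fold changes are on this scale, and Benjamini-Hochberg adjustment ran over all genes tested (threshold 0.05). Treatments were compared as CPM of recovered reads without a test. Depth limits the precision of genes with few reads, such as Mc5r. Alternatives were other pseudocounts, filters, scalings and moderation, sex as a block, fits within 1 table, edgeR 4.0.16, DESeq2 1.42.0 and leaving out each library. Pathway genes were named by the largest change among those at an unadjusted p under 0.05, at most 3 in a list; nearest genes were the 8 with the smallest difference from the members' median profile, predicted genes passed over. The members and lists were chosen with earlier results of these data known. Exon lengths and positions are from GENCODE vM21. The fit was tested on simulated data with a fixed spread for all genes and no difference between the sexes. That test therefore does not cover the spread between the members' libraries. Other steps used Python 3.11.15 (pandas 2.3.3, numpy 2.4.6; figures by matplotlib 3.10.9).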

Additional observations from a re-analysis of the deposited data

Results flagged for a closer look

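In 9 genes the labelled knockout was lower than the control in the female pair and higher in the male pair under IMQ. The male difference minus the female difference on the log2 scale was 1.82 for Scd1, 1.86 for Scd3, 2.02 for Elovl5, 1.66 for Soat1, 3.84 for Awat2, 2.07 for Cidea, 2.08 for Pparg, 3.01 for Mc5r and 1.85 for Far2. In untreated epidermis the pairs went apart the other way in Mc5r, with -1.05. With 1 library per sex and genotype these differences between the sexes were not tested.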

How the results depend on the processing

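No member was called in any contrast under any alternative run. The untreated median of the members stayed positive under all of them, from 0.42 to 1.23 with 1 library left out. Over all genes, the untreated count of 0 became 5 with a pseudocount of 5, 9 with quantile normalisation, 8 with each table alone, 8 with sex as the replicate block, 6 with edgeR and the replicate block and 87 with DESeq2, and was 0 to 2 with 1 library left out. The IMQ count of 64 became 0 without trend and robust fitting, 0 with each table alone, 358 with the replicate block, 292 with edgeR and the replicate block and 1247 with DESeq2, and ran from 0 to 299 with 1 library left out (299 without the male labelled knockout under IMQ, 3 without the female one, 5 without the female IMQ control and 0 without any 1 of the untreated libraries). For the difference DESeq2 called 98 genes. The cause was not tested. Same-sex deviations from the group means correlated by 0.145 to 0.463 across genes between groups, but sex is the only thing the replicate number marks.

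Leaving out 1 library at a time moved the members' median from -0.24 to 0.92 under IMQ, from -1.11 to 7.45e-05 for the difference, and from -1.93 to -0.78 for IMQ against untreated in the labelled knockouts. The signs of single genes turned likewise. Under IMQ the log2 fold change ran from -0.32 to 0.62 for Scd1, -0.086 to 1.64 for Scd3, -0.25 to 0.94 for Elovl5, -0.18 to 0.88 for Soat1, -0.96 to 1.20 for Awat2, -0.10 to 1.16 for Cidea, -0.39 to 0.81 for Pparg, -1.44 to 0.26 for Mc5r and -0.30 to 0.90 for Far2. Untreated, Mc5r ran from -0.25 to 0.68. For the difference the ranges were -1.04 to 0.69 for Scd3, -1.07 to 0.15 for Elovl3, -0.99 to 0.072 for Soat1, -1.62 to 0.54 for Awat2, -1.03 to 0.23 for Cidea and -1.65 to 0.044 for Mc5r. Beyond left-out libraries, Awat2 under IMQ was -0.055 with edgeR and the replicate block, and Scd3 for the difference was 0.28 with edgeR and 0.31 with DESeq2. The fit without a library assumes that the lone library of its group varies like the others. The difference could not be fitted with each table alone. Mc5r, with 15 to 116 reads per library, is the member most limited by depth.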
